A study of Saccharomyces cerevisiae with 12 samples.

Results

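The AAD genes of Saccharomyces cerevisiae are a family of putative aryl-alcohol dehydrogenases, and their RNA was measured here in 2 yeast strains at 2 times of fermentation. The members were found by matching 7 gene symbols, AAD3, AAD4, AAD6, AAD10, AAD14, AAD15 and AAD16, to the reference strain's gene table. The symbol AAD16 has no entry of its own there. The table lists YFL057C as an alternative name of AAD6, whose own systematic name is YFL056C. Whether the row YFL057C is the missing member AAD16 is not settled by the table, so AAD6 is given as the mean of its 2 rows and each row is also given apart. The 7 symbols therefore gave 6 genes of the 6214 measured, and these genes had 7 rows among the 6246 of the deposited value table. All 6 genes had a value on all 12 arrays, and all passed the filter on missing values, as did 5474 genes in all.

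The family is named for its resemblance to the aryl-alcohol dehydrogenase of the wood-rotting fungus Phanerochaete chrysosporium. Such enzymes belong to the aldo-keto reductases, which use NADPH to reduce aldehydes to alcohols. In yeast the copies lie near the ends of chromosomes, and AAD4 and AAD6 are known to be induced under oxidative stress through the transcription factor Yap1. Aromatic aldehydes also arise in fermenting yeast from the breakdown of aromatic amino acids, whose alcohols contribute to aroma.

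The groups were strain ITD00185 at 48 h, strain T73 at 48 h, strain ITD00185 at 96 h and strain T73 at 96 h, with 3 arrays each, labelled as biological replicates. The series title contrasts an agave strain with a wine yeast, and T73 is the wine yeast. Both strains fermented synthetic agave must at 28 ºC. On every array the strain's RNA carried Cy5 and a mix of samples from the same time carried Cy3, so that no array had the dyes exchanged and the makeup of the mix is not given in the labels.

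Each deposited value is a log2 ratio between the channels. Whether it is strain over mix or mix over strain is not stated in the sources used here, so signs are given as deposited. Throughout, "higher" and "lower" compare the deposited ratio of ITD00185 with that of T73, or of 96 h with that of 48 h, and do not say which strain had more RNA. Turning the ratio would turn every sign and leave the sizes, the tests and the overlaps as they are. Values above 4 outnumbered values below -4 in every group, by 697 to 79 on the T73 arrays of 48 h. In that group the rows with a value missing on 1 array had a median of 1.79 and the complete rows 0.25, while in the other 3 groups the medians of the rows with 1 value missing were 0.02 to 0.36. These values bear on the direction, which was not settled. Between 5657 and 6116 rows had a value on an array. The arrays differed in spread. The standard deviation over rows was 1.03 to 1.52 on the ITD00185 arrays at 48 h, 1.80 to 2.08 on the T73 arrays at 48 h, 1.48 to 1.71 on the ITD00185 arrays at 96 h and 1.14 to 1.31 on the T73 arrays at 96 h. Replicate 2 of ITD00185 at 48 h stood apart, since over genes it correlated 0.42 and 0.51 with replicates 1 and 3 of its own group and 0.82 to 0.86 with the 96 h arrays of its strain. No value is available for how well each strain's own AAD sequences bind these rows, so a difference in sequence or copy number between the strains and a difference in RNA level cannot be told apart. Whether a row also measures RNA of a similar family copy was not tested.

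At 48 h the deposited ratio of all 6 AAD genes was higher in ITD00185 than in T73, by log2 differences from 1.28 for AAD10 to 3.77 for AAD3. All 6 were called, meaning an adjusted p under 0.05. Of all genes tested, 12.9% were called higher in ITD00185 at 48 h and 26.7% were called lower. The median difference was 1.54 over the 6 genes and -0.32 over all genes tested. For each of the 6 genes the lowest ITD00185 array lay above the highest T73 array, which was so for 14.7% of the 4888 genes with all values at 48 h, while 26.2% had T73 above. The differences of AAD10 and AAD14 depended on the scaling of the arrays, as described further on. For AAD10 the sign turned under one scaling. With the rows of AAD6 kept apart, 6 of 7 rows were called, all but YFL056C. In a fit of the 48 h arrays alone, AAD6 and AAD10 had adjusted p values of 0.0689 and 0.066.

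AAD3 (YCR107W), a putative aryl-alcohol dehydrogenase near the right end of its chromosome, differed most. Its log2 ratios were 1.56, 1.06 and 1.39 on the ITD00185 arrays at 48 h and -2.55, -2.46 and -2.28 on the T73 arrays. The ITD00185 arrays were all above 0 and the T73 arrays all below 0, with no overlap. The difference was 3.77 ± 0.23 (SE, n = 3 a strain, 95% interval 3.27 to 4.27), a 13.6-fold ratio, with a limma adjusted p of 3.74e-06. By the size of the difference, whatever its sign, it ranked 138 among the 5474 genes tested. The other AAD genes ranked from 1131 (AAD15) to 1792 (AAD10) at 48 h.

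AAD4 (YDL243C), whose product is an active aryl-alcohol dehydrogenase, followed the same order at a smaller size. It read 0.59, 0.43 and 0.41 in ITD00185 and -1.37, -1.12 and -0.77 in T73 at 48 h. The strains did not overlap, and the 3 ITD00185 arrays lay close together. The difference was 1.56 ± 0.39 (SE, n = 3 a strain), a 2.95-fold ratio, with a limma adjusted p of 0.0101.

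AAD14 (YNL331C), which also encodes an active aryl-alcohol dehydrogenase, had a ratio below 0 on all 12 arrays. Its 48 h values were -0.37, -0.89 and -1.11 in ITD00185 and -2.41, -2.18 and -2.08 in T73. The T73 arrays were tightly grouped and all lower than the ITD00185 arrays. The difference was 1.43 ± 0.24 (SE, n = 3 a strain), a 2.70-fold ratio, with a limma adjusted p of 0.00144.

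AAD10 (YJR155W) and AAD15 (YOL165C) are shorter copies in the reference strain, and both had ratios below 0 on all 12 arrays. AAD10 read -1.76, -2.70 and -2.48 in ITD00185 and -3.97, -3.43 and -3.36 in T73 at 48 h. AAD15 read -0.47, -1.27 and -0.33 in ITD00185 and -2.31, -2.66 and -2.32 in T73. Neither gene's strains overlapped, and for both genes replicate 2 was the lowest of the 3 ITD00185 arrays. The difference was 1.28 ± 0.31 (SE, n = 3 a strain), or 2.42-fold, with a limma adjusted p of 0.00865 for AAD10. For AAD15 it was 1.74 ± 0.27 (SE, n = 3 a strain), or 3.34-fold, with an adjusted p of 0.0011.

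AAD6 (YFL056C) is listed as a pseudogene in the gene table, and the mean of its 2 rows was used. It read 0.37, -0.25 and -0.32 in ITD00185 and -1.34, -0.97 and -2.45 in T73 at 48 h. The strains did not overlap, but T73 replicate 3 lay well below the other two. The difference was 1.52 ± 0.36 (SE, n = 3 a strain), a 2.86-fold ratio, with a limma adjusted p of 0.00823. Without that T73 array it was 1.09, with an adjusted p of 0.014.

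**Figure D1:**
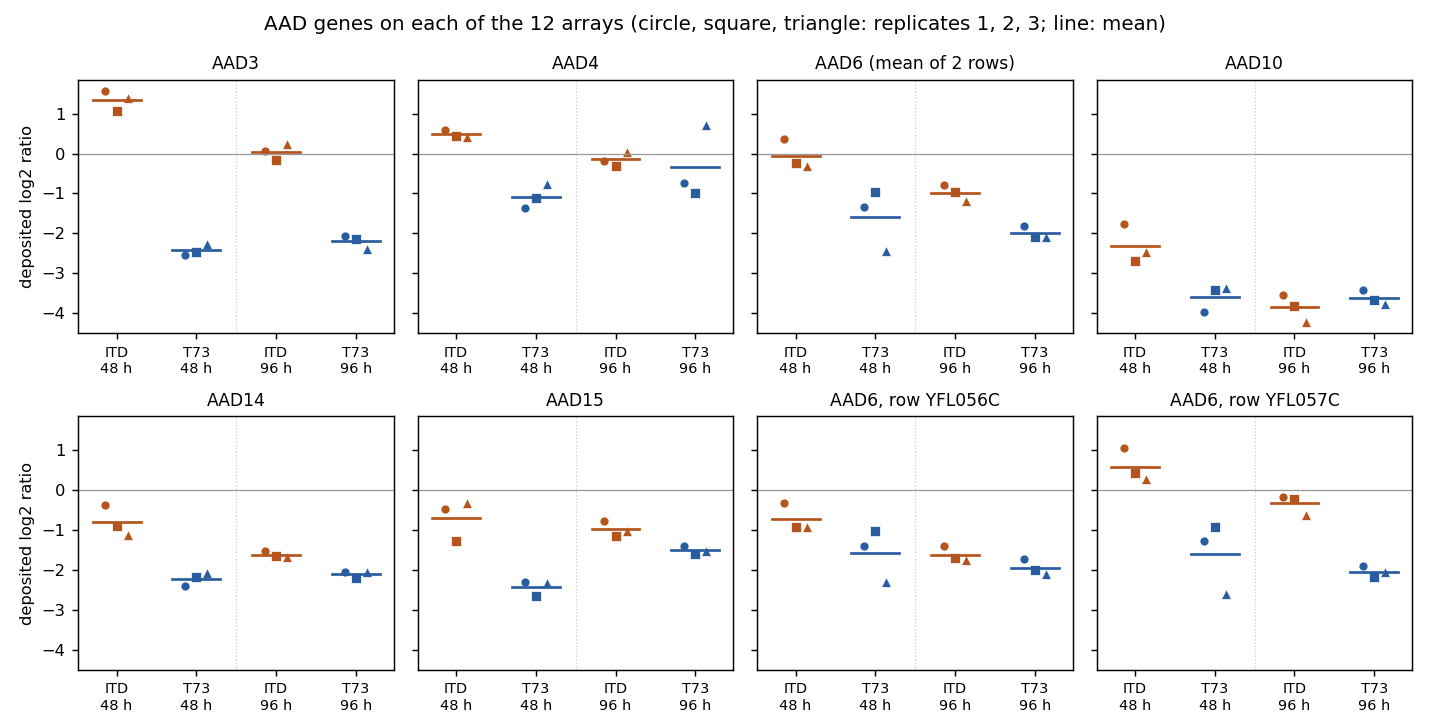
Deposited log2 ratio of the channels (vertical axis) of each AAD gene, and of both rows of AAD6, on the 12 arrays in the 4 groups of strain and time, where points are arrays (circle, square and triangle for replicates 1, 2 and 3) and lines are group means. At 48 h the 3 ITD00185 arrays lie above the 3 T73 arrays for all 6 genes, and at 96 h AAD4 and AAD10 overlap.

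At 96 h AAD3 was the gene of the 6 that passed the test. Of all genes tested, 12% were called higher in ITD00185 and 10.5% lower. With the rows of AAD6 kept apart, 2 of 7 rows passed, AAD3 and YFL057C. The median difference was 0.51 over the 6 genes and -0.01 over all genes tested. The lowest ITD00185 array lay above the highest T73 array for 4 of the 6 genes, AAD3, AAD6, AAD14 and AAD15, while 27.7% of the 5296 genes with all values at 96 h showed this and 30.6% showed the opposite order.

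AAD3 read 0.07, -0.16 and 0.24 in ITD00185 and -2.06, -2.15 and -2.39 in T73 at 96 h. ITD00185 was close to 0 and T73 far below it, with no overlap. The difference was 2.25 ± 0.23 (SE, n = 3 a strain, 95% interval 1.75 to 2.75), a 4.75-fold ratio, with a limma adjusted p of 0.000187.

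AAD6 read -0.79, -0.96 and -1.18 in ITD00185 and -1.81, -2.09 and -2.08 in T73 at 96 h. The strains were well apart, with a difference of 1.01 (95% interval 0.22 to 1.80) and a limma adjusted p of 0.0642. Leaving out T73 replicate 2 or replicate 3 of 48 h, which changes the estimated spread and not this difference, gave adjusted p values of 0.0426 and 0.0179. AAD6 also passed with the replicate number as a block (adjusted p = 0.0375), in a fit of the 96 h arrays alone (0.00565) and with array weights (0.85, adjusted p = 0.00429). Over all genes tested, these fits called 1439, 2466 and 3178 at 96 h, against 1229 in the main fit. AAD14 read -1.53, -1.65 and -1.68 in ITD00185 and -2.04, -2.21 and -2.06 in T73, a difference of 0.48 (95% interval -0.04 to 1.01, adjusted p = 0.157). AAD15 read -0.77, -1.16 and -1.01 in ITD00185 and -1.39, -1.60 and -1.53 in T73, a difference of 0.53 (95% interval -0.08 to 1.13, adjusted p = 0.181). Both genes kept ITD00185 above T73 on every array, at sizes that did not pass the test.

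AAD4 read -0.20, -0.31 and 0.05 in ITD00185 and -0.74, -0.99 and 0.71 in T73 at 96 h. T73 replicate 3 lay above every ITD00185 array, and the other two T73 arrays lay below them. The difference was 0.19 (95% interval -0.67 to 1.04, adjusted p = 0.751), and without T73 replicate 3 it was 0.71 (adjusted p = 0.119), while without T73 replicate 1 or replicate 2 it was -0.02 or -0.14. AAD10 read -3.54, -3.82 and -4.21 in ITD00185 and -3.41, -3.68 and -3.77 in T73. The strains overlapped, with a difference of -0.24 (95% interval -0.91 to 0.44, adjusted p = 0.598).

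**Figure D2:**
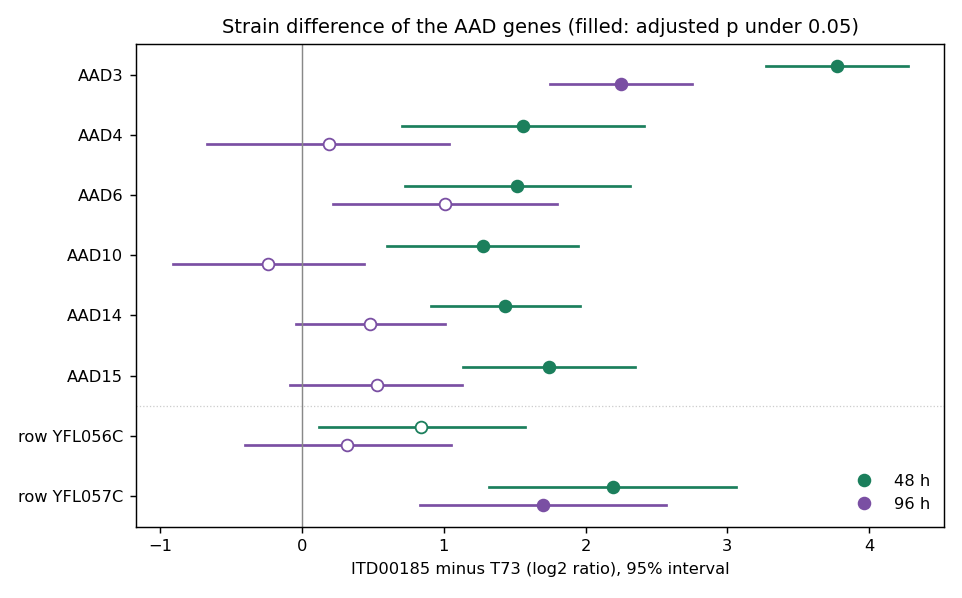
ITD00185 minus T73 (deposited log2 ratio, horizontal axis) for each AAD gene and for both rows of AAD6 at 48 h and at 96 h, where points are limma estimates, bars are 95% intervals and filled points have an adjusted p under 0.05. All 6 genes are filled at 48 h, from 1.28 to 3.77, and of the 6 genes AAD3 is filled at 96 h, at 2.25.

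Averaged over both times with equal weight, 5 of the 6 genes were called higher in ITD00185, all but AAD10. Of all genes tested, 8.7% were called higher and 15.5% lower. The averages of the 5 ran from 0.87 for AAD4 (limma adjusted p = 0.0392) to 3.01 for AAD3 (adjusted p = 9.31e-07). AAD10 averaged 0.52 (adjusted p = 0.102). With an array left out it passed once, without ITD00185 48 h replicate 2, at 0.62 and an adjusted p of 0.0459. The call of AAD4 was lost without any one of 9 of the 12 arrays, and it held without ITD00185 48 h replicate 2, T73 48 h replicate 3 or T73 96 h replicate 3. It was also lost with the arrays scaled to one spread (0.90, adjusted p = 0.0642) and quantile normalization (0.95, 0.0664), at about the same size.

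The strain difference was smaller at 96 h than at 48 h for AAD3, AAD10, AAD14 and AAD15 by the test of the change itself. These are 4 of 6 genes, in a background of 13.6% of genes whose difference passed as falling and 24.4% as rising. The change was -1.52 ± 0.32 (SE) for AAD3 (limma adjusted p = 0.00685), -1.51 ± 0.43 for AAD10 (0.0214), -1.21 ± 0.39 for AAD15 (0.0318) and -0.95 ± 0.34 for AAD14 (0.0448). It was -1.38 for AAD4 (adjusted p = 0.0669, and 0.0369 without T73 96 h replicate 2) and -0.50 for AAD6 (adjusted p = 0.44). AAD3 passed with each array left out in turn. AAD10 was lost without ITD00185 96 h replicate 3 or T73 96 h replicate 1. AAD15 was lost without any one of 8 arrays, namely replicates 1 and 3 of ITD00185 at 48 h, replicates 2 and 3 of ITD00185 at 96 h, replicate 2 of T73 at 48 h and all 3 of T73 at 96 h. With an array left out, AAD14 passed without replicate 2 or 3 of ITD00185 at 48 h or replicate 3 of T73 at 48 h and was lost without any other. With the replicate number as a block AAD14 was lost (adjusted p = 0.0509) and AAD4 was gained (0.0455), and AAD4 also passed with the arrays centred (-1.69, 0.0334). All 4 calls were lost when the arrays were set to one spread and under quantile normalization.

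Within a strain, a change between times is a change of the ratio against the mix of each time. In ITD00185 2.7% of all genes passed as falling and 3.82% as rising. Of the 6 AAD genes 2 passed as falling, AAD10 by 1.54 (limma adjusted p = 0.0238) and AAD3 by 1.28 (adjusted p = 0.0185). Both calls were lost without any one of 4 arrays, replicates 1 and 3 of 48 h and replicates 2 and 3 of 96 h. Under one spread and quantile normalization AAD3 still passed, at -1.73 and -1.92, while AAD10 did not, at -0.48 (adjusted p = 0.326) and -1.04 (0.0774). In T73 8.42% of all genes passed as rising and 23.9% as falling. There 1 of the 6 AAD genes passed as rising, AAD15 by 0.93 (adjusted p = 0.0262). Its call was lost without T73 48 h replicate 2 or any one of the 3 T73 arrays of 96 h. It was also lost under one spread (0.21, adjusted p = 0.581) and quantile normalization (0.35, 0.369), and under one spread the gene called in T73 was AAD10 instead, at -1.46 (0.0208). With an array left out, AAD14 passed in ITD00185 without its 48 h replicate 2, at -0.88 (adjusted p = 0.0212), and AAD6 in T73 without its 48 h replicate 3, at -0.83 (adjusted p = 0.0445). AAD3 was near one low level in T73, at -2.43 ± 0.14 (SD, n = 3) at 48 h and -2.20 ± 0.17 at 96 h.

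The 2 rows of AAD6 did not give the same strain difference. Row YFL056C read -0.32, -0.93 and -0.93 in ITD00185 and -1.41, -1.01 and -2.29 in T73 at 48 h. Row YFL057C read 1.06, 0.43 and 0.28 in ITD00185 and -1.28, -0.93 and -2.60 in T73. Neither row's strains overlapped, and the gap between the strains was the wider for YFL057C. The limma difference was 0.84 (adjusted p = 0.0616) for YFL056C and 2.19 (adjusted p = 0.00228) for YFL057C at 48 h.

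At 96 h the strain difference was again the larger for YFL057C. Row YFL056C read -1.41, -1.70 and -1.75 in ITD00185 and -1.72, -2.0 and -2.10 in T73, a difference of 0.32 (limma adjusted p = 0.496). Its strains overlapped at this time, while those of YFL057C did not. Row YFL057C read -0.16, -0.22 and -0.62 in ITD00185 and -1.89, -2.17 and -2.05 in T73, a difference of 1.70 (adjusted p = 0.0128). The strain difference of YFL057C exceeded that of YFL056C by 1.35 at 48 h and 1.38 at 96 h. An exact permutation of the strain labels within each time, a test chosen after the values were seen, gave a two-sided p of 0.005, the smallest its 400 arrangements allow. The deposited row YFL057C thus carried most of the AAD6 strain difference.

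The scaling of the arrays bears on these results, because the T73 arrays of 48 h had the widest spread. As deposited, the median of all genes at 48 h was -0.32 and 705 genes were called higher against 1459 lower. Centring each array on its median brought the median to -0.05 and the calls to 1001 higher and 1120 lower, and all 6 AAD genes were still called at 48 h. With the arrays also set to one spread, the 48 h calls were 537 higher and 715 lower, and AAD3 stood at 3.75, AAD4 at 1.60, AAD6 at 1.31 and AAD15 at 1.15, all called. AAD14 then had 0.79 (limma adjusted p = 0.0594) and AAD10 -0.15 (adjusted p = 0.761), opposite in sign to its deposited value. Quantile normalization gave 581 higher and 684 lower, with 0.96 for AAD14 (adjusted p = 0.0333) and 0.61 for AAD10 (adjusted p = 0.171).

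At 96 h, where the ITD00185 arrays were the wider, one spread and quantile normalization both raised 5 of the 6 differences, and AAD4 had 0.19 under one spread and 0.20 under quantile normalization against 0.19 as deposited. Under one spread AAD3 had 2.63, AAD6 1.46, AAD14 1.01 and AAD15 0.88, all called, and AAD10 had 0.82 (limma adjusted p = 0.101). Quantile normalization called AAD3 at 2.58, AAD6 at 1.37 and AAD15 at 0.84. The change of the strain difference between the times passed for none of the 6 genes under either scaling, with adjusted p values of 0.0961 and 0.053 for AAD3. AAD3 was thus called at both times under all 4 scalings, AAD4, AAD6 and AAD15 at 48 h under all 4, and AAD10 at neither time under 2 of the 4.

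**Figure D3:**
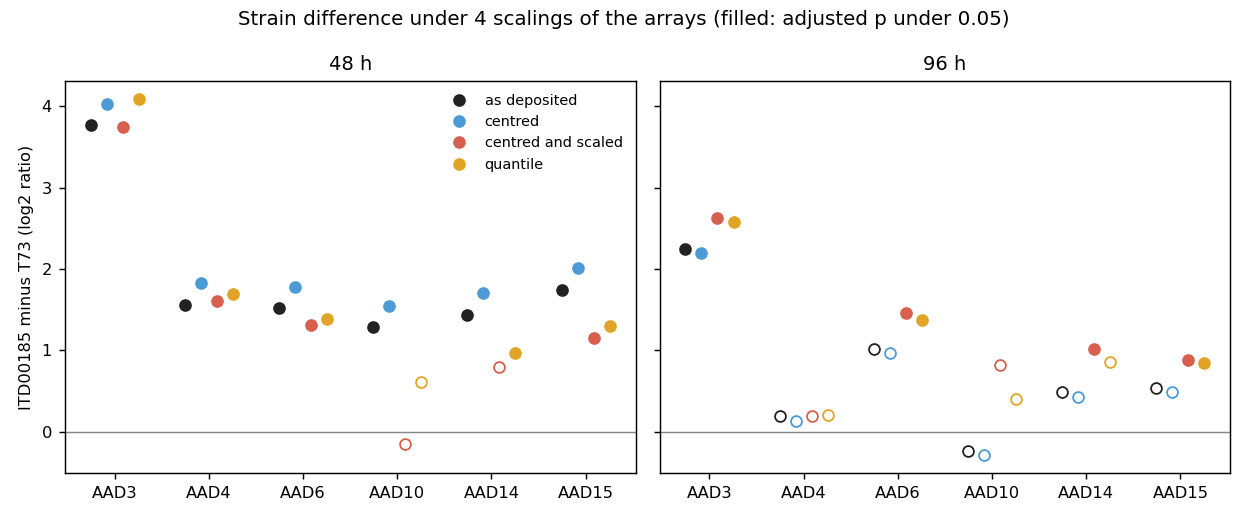
ITD00185 minus T73 (deposited log2 ratio, vertical axis) for each AAD gene at 48 h and at 96 h, with the values as deposited, with each array centred on its median, with arrays centred and scaled to one spread, and after quantile normalization, where filled points have an adjusted p under 0.05. AAD10 at 48 h goes from 1.28 as deposited to -0.15 under one spread, while AAD3 stays between 3.75 and 4.09.

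Across the 12 arrays the ratios of the 6 genes were positively correlated with one another. Over array-centred values, the 15 pairs of genes had Pearson r from 0.55 (AAD4 with AAD6) to 0.94 (AAD3 with AAD14), with a median of 0.80. The arrays share 4 groups and the mix of each time, so these values describe the pattern of the groups and carry no p. Of the 4807 genes with all 12 values, those most like AAD3 outside the family were RIO2, HOS2 and MMP1, with r from 0.974 to 0.976. Those most like AAD4 were YPR127W, YKL177W and PAU23 (0.953 to 0.957), and those most like AAD14 were YPR172W, PAU7 and VTC1 (0.957 to 0.964). AAD15 was most like WSC3, CCP1 and GTT1 (0.981 to 0.985). AAD6 was most like MTR10, PDC6 and YHR173C (0.904 to 0.909), and AAD10 most like SSM4, YDR338C and AQY1 (0.915 to 0.935). For each of the 6 genes, these genes outside the family had a higher r with it than any other AAD gene did. The outside genes were picked for the highest r from a far larger number of genes than the family holds. This order therefore cannot show whether the AAD genes resemble outside genes more than one another. Whether the AAD genes correlate more than other genes was not tested.

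All 6 genes lie close to a chromosome end in the reference strain, with between 1 gene (AAD3 and AAD15) and 10 genes (AAD6) between them and the end. Up to 4 genes on each side gave 42 neighbours, of which 26 were tested. At 48 h 7 of the 26 were called higher in ITD00185 and 1 lower, with a median of 0.50, beside 12.9% and 26.7% of all genes. At 96 h 6 were called higher and 6 lower, with a median of -0.46, beside 12% and 10.5% of all genes. The number lower at 48 h was 2 without T73 48 h replicate 1 or 3. At 96 h it was 3 without replicate 2 or 3 of ITD00185 or any one of the 3 T73 arrays of that time. It was 3 under one spread and 2 under quantile normalization and with array weights at 48 h, and 13 with array weights and 10 in a fit of 96 h alone at 96 h. Over all genes, those 96 h fits called 1563 and 1214 lower, against 573 in the main fit. No test compared an AAD gene with its neighbours.

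Next to AAD4, AAD6, AAD10 and AAD14, on the side of the chromosome end, lie THI13, THI5, THI11 and THI12, near-identical genes of thiamine precursor synthesis whose rows may not be separable. None of the 4 passed at 48 h, where their differences ran from -1.11 to -0.05. At 96 h 3 of the 4 were called lower in ITD00185, with -0.85 for THI13 (limma adjusted p = 0.0362), -2.45 for THI5 (0.00674) and -2.49 for THI12 (0.00183). THI11 had -1.65 (0.158). The pyridoxine-related genes SNZ2, SNZ3, SNO2 and SNO3 beyond THI5 and THI12 did not pass at either time.

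Further along, several differences were larger in size than those of the AAD genes beside them. MPH2, a maltose permease gene beyond AAD4, had 4.49 at 48 h and 3.15 at 96 h, and the hexose transporter gene HXT15 between them had 1.97 and 1.85. On the right end that holds AAD10, HXT16 had 1.29 and 1.68, while DAL5, an allantoate permease gene on the inner side, had -5.44 and -5.04. Beside AAD6, ZNF1, a transcription factor gene, had 7.87 and 5.35 and DDI3, a cyanamide hydratase gene, had 4.04 and 3.77, each passing at both times. Its near-identical copy DDI2 beyond AAD14 had 0.73 (adjusted p = 0.117) and 1.22 (0.0312).

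Between ZNF1 and AAD6 lie DAK2, AQY3 and AGP3, which were not tested. They had values on all 6 T73 arrays and on at most 3 of the 6 ITD00185 arrays. AQY3 had no value on the ITD00185 arrays of 48 h, and at 96 h it averaged 10.67 over 2 ITD00185 arrays and -1.49 over the 3 T73 arrays. Large positive ratios with missing values thus fell on ITD00185 for these genes, on few arrays. Whether this comes from the unsettled direction of the ratio or from a difference in sequence or copy number was not tested. Beside AAD3, the only gene between it and the end, YCR108C, had 2.28 at 48 h (limma adjusted p = 0.00243) and -1.33 at 96 h (0.043). The strain difference of AAD3 was above 0 at both times. The genes on its inner side, YCR102C and PAU3, did not pass at either time. Beside AAD15 a single neighbour was tested, YOL164W-A, with -7.12 ± 3.37 (SE) at 48 h (adjusted p = 0.114).

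**Figure D4:**
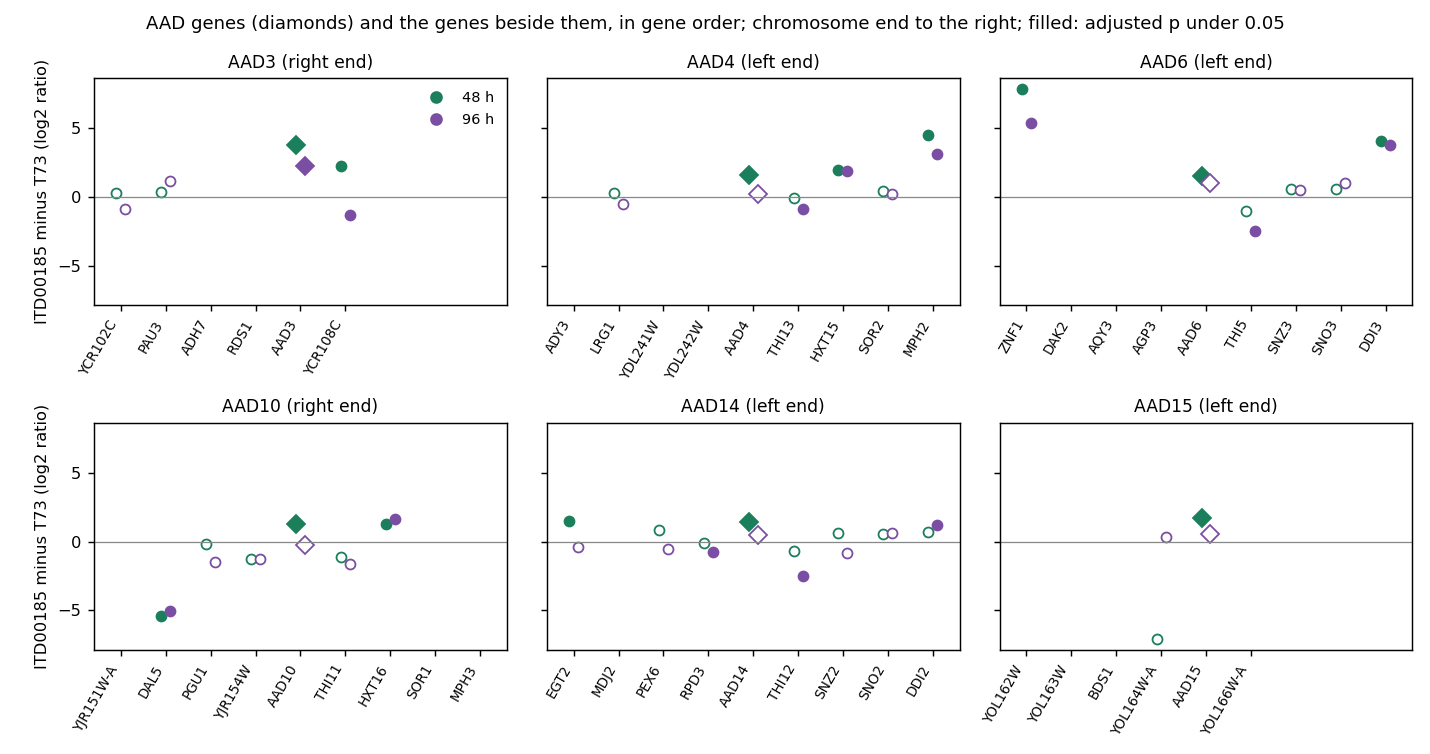
ITD00185 minus T73 (deposited log2 ratio, vertical axis) for each AAD gene (diamonds) and up to 4 genes on each side (circles) in the gene order of the reference strain, with the chromosome end to the right, at 48 h and 96 h, where filled symbols have an adjusted p under 0.05 and names without a symbol were not tested. All 6 diamonds are filled at 48 h, while none of the THI genes next to 4 of them is.

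Genes related by function were compared as 4 lists, against the same background shares. In the list counts, higher and lower mean called at an adjusted p under 0.05. Of the 7 other aldo-keto reductase genes, 2 were higher and 2 lower in ITD00185 at 48 h, with a median of 0.36, and 2 were higher and 1 lower at 96 h, with a median of 0.74. YJR096W, a putative xylose and arabinose reductase, had 2.29 at 96 h (limma adjusted p = 0.000796), and YDL124W, an alpha-keto amide reductase, had 0.85 at 48 h (0.0328) and 1.36 at 96 h (0.0072). YPL088W, a putative aryl-alcohol dehydrogenase outside the AAD genes, was lower, with -1.33 at 48 h (0.00296) and -1.32 at 96 h (0.00523). YPR1, a reductase of 2-methylbutyraldehyde, had 0.69 at 48 h (0.0333). With one array left out, 0 to 3 of these 7 genes were higher at 48 h. The count was 0 without replicate 1 or 3 of either strain at 48 h and 1 without replicate 3 of ITD00185 or replicate 1 of T73 at 96 h. The number lower at 48 h was 0 under one spread and quantile normalization, and 1 without ITD00185 48 h replicate 1 or 3, ITD00185 96 h replicate 3, T73 48 h replicate 2 or T73 96 h replicate 1. The number higher at 96 h was 4 without ITD00185 48 h replicate 2.

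Of 9 tested genes for alcohol dehydrogenases and aldehyde reductases, 2 were higher and 3 lower at 48 h, with a median of 0.20, and 1 was lower at 96 h, with a median of -0.55. ADH6, an NADPH-dependent cinnamyl alcohol dehydrogenase, had -2.66 at 48 h (limma adjusted p = 0.000661). BDH1, butanediol dehydrogenase, had 2.24 (0.00362) and YLR460C, of the quinone oxidoreductase type, had 1.71 (0.00392). SFA1, which reduces long-chain and aromatic aldehydes, had -1.52 at 48 h (0.00415) and -1.59 at 96 h (0.00547). The number lower at 96 h was 3 without ITD00185 48 h replicate 2 and 2 without T73 48 h replicate 2 or 3. It was 2 with the arrays centred, under one spread, under quantile normalization and with the replicate block, and 5 with array weights and in a fit of 96 h alone. Over all genes, array weights called 1563 lower at 96 h and the fit of 96 h alone 1214, against 573 in the main fit.

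Of 10 genes of the Ehrlich pathway, which turns aromatic amino acids into aldehydes and alcohols, 4 were higher and 0 lower at 48 h, with a median of 0.81, and 0 were higher and 3 lower at 96 h, with a median of -0.80. The 4 at 48 h were genes of a pyruvate decarboxylase and of alcohol dehydrogenases. No ARO gene of the list passed at 48 h, with differences from -0.73 to 1.39. PDC6, a pyruvate decarboxylase gene, had 1.30 at 48 h (limma adjusted p = 0.0124) and ADH3, the mitochondrial alcohol dehydrogenase gene, had 1.10 (0.0167). ADH5 went from 0.82 at 48 h (0.0272) to -1.23 at 96 h (0.008), a change of -2.05 that passed its own test (adjusted p = 0.00352). ARO8, an aromatic aminotransferase gene, had -2.25 at 96 h (0.0036). The 4 calls at 48 h became 7 without ITD00185 48 h replicate 2, 2 without its replicate 3, and 1 without its replicate 1 or without T73 48 h replicate 1 or 2, and they were 2 under one spread and quantile normalization. They were 7 with array weights and 0 in a fit of the 48 h arrays alone.

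Of 21 tested genes of Yap1 and its targets, 4 were higher and 5 lower at 48 h, with a median of -0.06, and 3 were higher and 4 lower at 96 h, with a median of -0.30. OYE3, an NADPH oxidoreductase of the old yellow enzyme type, had -2.68 at 48 h (limma adjusted p = 0.000279) and -4.17 at 96 h (3.18e-05). AHP1, a thiol peroxidase gene, had 2.44 at 96 h (0.000707), CCP1, cytochrome c peroxidase, had 2.21 at 48 h (0.00132), and YML131W, a putative oxidoreductase gene, had -1.33 and -1.91 (0.00733 and 0.00242). The 3 calls higher at 96 h became 1 with any one of the 6 arrays of 96 h left out. As deposited, the calls at 48 h ran in 1 direction for the AAD genes and for the Ehrlich pathway, and in both directions for the other 3 lists. For the Ehrlich pathway this depends on the genes listed. SFA1, which also reduces aromatic aldehydes, was counted with the alcohol dehydrogenases and had -1.52 at 48 h. Whether the AAD genes differ from these lists was not tested.

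**Figure D5:**
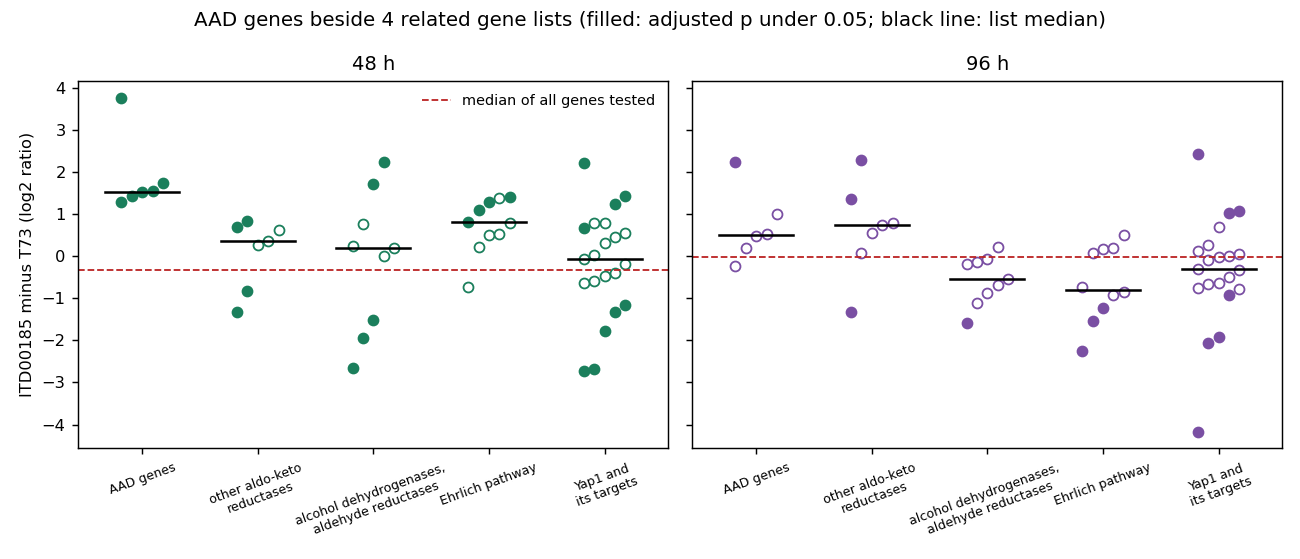
ITD00185 minus T73 (deposited log2 ratio, vertical axis) of each AAD gene and of each tested gene of 4 related lists at 48 h and 96 h, where filled points have an adjusted p under 0.05, black lines are list medians and the dashed line is the median of all genes tested. At 48 h the AAD median is 1.54, and the medians of the 4 lists lie between -0.06 and 0.81.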

How the data were processed

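The authors deposited log2 ratios of 12 two-colour arrays, 1 value per row and array. Their direction (strain over mix or mix over strain), background correction and normalization are not given in the sources used here. In all, the 6246 rows carry systematic names, of which 5753 matched a locus tag of the RefSeq gene table (S. cerevisiae R64), 34 matched a synonym and 459 are not in it. Rows of one gene were averaged, for 31 genes. The values as deposited were fitted with limma 3.58.1 in R 4.3.3 with 4 group means and no covariate, for 5474 genes with at least 2 arrays in each group. Tests were two-sided, adjusted by Benjamini-Hochberg over all genes tested, with a threshold of 0.05, 8 residual and 3.16 prior degrees of freedom. The code was tested on simulated data.

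The members and lists were chosen with earlier results of these data known. All members are named. From each list at most 4 genes are named, those past the threshold at 48 h or 96 h with the smallest adjusted p. For each member the 3 most correlated genes are named, and any neighbour may be. The 12 arrays limit the precision. Alternatives were array centring, scaling, quantile normalization, missing-value filters, array weights, fits of one time or strain, a replicate block, another variance prior and each array left out. Keeping rows of a gene apart was chosen after seeing the data. Replicate numbers were not taken to pair the arrays across groups, since not every same-number correlation was over 0.1: of 18 same-number correlations of deviations from group means, 7 were over 0.1 and 2 under -0.1, in a range of -0.19 to 0.52, and of 36 for different numbers 8 were over 0.1 and 15 under -0.1. Promoter sequences were not used here.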

Additional observations from a re-analysis of the deposited data

Results flagged for a closer look

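The strain difference of 4 AAD genes differed between 48 h and 96 h by the test of that change. The change in ITD00185 minus T73 was -1.52 for AAD3, -1.51 for AAD10, -1.21 for AAD15 and -0.95 for AAD14. With the arrays set to one spread these values were -1.12, 0.97, -0.26 and 0.22, and none passed.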

How the results depend on the processing

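The strain differences of the 6 AAD genes at 48 h gave 132 values over 22 alternatives. Of these, 127 kept their direction and their call, 4 kept the direction only, and 1, AAD10 at -0.15 with arrays set to one spread, changed sign. In many of the alternatives the 48 h difference could not move and only its adjusted p could. These were the fits without a 96 h array, with other missing-value filters or of the 48 h arrays alone. The replicate block and the other variance prior were of this kind too. The count called at 48 h was 4 under one spread, 5 under quantile normalization and 4 in a fit of 48 h alone. The count called at 48 h was 6 with any array left out, and 4 to 6 of the averages over times passed. At 96 h 1 gene passed, against 4 under one spread, 3 under quantile normalization, 4 with array weights, 2 in a fit of 96 h alone, 2 with the replicate block, and 1 to 2 with an array left out. The change between times passed for 4 genes, against 0 under one spread and under quantile normalization and 1 to 4 with an array left out. In ITD00185 2 genes changed between times, against 1 under one spread and under quantile normalization. The count was 0 in a fit of that strain alone and 0 to 3 with an array left out. With array weights it was 5, where 2835 of all 5474 genes tested were called, against 357 in the main fit. In T73 1 changed, against 0 under quantile normalization, 1 other gene under one spread, and 0 to 2 with an array left out. Signs also turned for AAD10 at 96 h (0.82 under one spread, 0.40 under quantile normalization), for its change of difference (0.97 under one spread), and for its change in T73 (0.28 centred, 0.18 with weights, and -0.22 to 0.08 with an array left out, at 0.05, 0.08 and 0.04 without T73 48 h replicate 2, 48 h replicate 3 or 96 h replicate 3). They turned for AAD14 (change of difference 0.22, change in T73 -0.65 under one spread and -0.46 under quantile normalization), AAD3 (change in T73 -0.61 and -0.41), AAD6 (change of difference 0.15) and AAD4 (at 96 h -0.14 to 0.71 with an array left out, at -0.02 and -0.14 without T73 96 h replicate 1 or 2). Over all genes 2164 were called at 48 h, against 1252 under one spread, 1265 under quantile normalization, 794 in a fit of 48 h alone and 1414 to 2832 with an array left out. At 96 h 1229 were called, against 3178 with weights, 2466 in a fit of 96 h alone and 537 to 1799. The cause was not tested. The replicate numbers were not taken as pairs, although 19 of 36 best correlations fell on the same number. The replicate block called 2370 genes at 48 h, 1439 at 96 h and 683 in ITD00185 between times, against 357 without it.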
